A study of Homo sapiens with 8 samples.

Results

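The genes of fatty acid metabolism described here were a list of 35, chosen by name with earlier results of these data known. They act in making, lengthening and desaturating, activating and storing, or oxidizing fatty acids. Their RNA was measured by RNA-seq in LNCaP-FGC, a human prostate carcinoma line whose growth depends on androgen. Of the 35, 34 were matched to transcripts of the deposited table and 33 were tested among 11874 genes of 19431 with matched transcripts. By role, 6 of 7 synthesis genes, 11 of 12 elongation and desaturation genes, and all 7 activation and storage genes and 9 oxidation genes were tested. No transcript could be assigned to ACACA, which encodes a cytosolic acetyl-CoA carboxylase, so it was not analysed here. ELOVL2, an elongase of very long polyunsaturated chains, stayed under the filter on low values, at 0.0947 to 0.507 scaled FPKM.

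Cells build fatty acids from citrate. ATP-citrate lyase cuts citrate into cytosolic acetyl-CoA, acetyl-CoA carboxylase makes malonyl-CoA from it, and fatty acid synthase joins these units into palmitate with NADPH, part of which comes from malic enzyme. Elongases and desaturases of the endoplasmic reticulum then lengthen the chain and add double bonds, acyl-CoA synthetases activate fatty acids for storage as triglyceride, and mitochondria and peroxisomes take them apart again by beta-oxidation. In prostate cancer cells, synthesis is known to be stimulated by androgen and by the sterol-regulated transcription factor SREBP-1, and the peroxisomal enzyme AMACR is a known tissue marker of the disease.

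All groups were the same cell line, kept for 24 h with 1 of 4 treatments, and each group held 2 libraries, numbered 1 and 2. The control group received DMSO, the solvent. The second group received I-CBP112, which occupies the bromodomains of p300 and CBP, coactivators that acetylate histones, the third received A-485, which blocks their catalytic site, and the last received both compounds. The labels state no doses, so the compounds could not be compared at matched doses. Whether the 2 libraries of a group came from separate cultures is not stated, so each p-value measures the spread between these libraries only, and that spread may be technical. In bulk RNA, fewer cells of a type and less RNA per cell cannot be told apart.

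The replicate 2 libraries stood apart in depth. Replicate 1 libraries held an estimated 15.9 to 28.1 M assigned fragments (M for 1e+06), or 90.7% to 99.2% of the fragments used to normalize them, and replicate 2 libraries 4.44 to 13.5 M, or 21.5% to 49.4%. Each group had 1 library of either kind, and changes within each replicate are given beside the main results. Within replicate 2 the groups were not even, with 22.6% assigned for DMSO, 21.5% for I-CBP112, 33.8% for A-485 and 49.4% for both. Treatment and this share cannot be told apart within replicate 2, and its part in the results was not tested. The median gene lay above DMSO in the FPKM as deposited, by a log2 value of 0.05 for I-CBP112, 0.35 for A-485 and 0.58 for the combination. The combination also exceeded I-CBP112 by 0.53 and A-485 by 0.22, A-485 exceeded I-CBP112 by 0.31, and the interaction median was 0.18. In replicate 1, the deposited FPKM summed to 808443 for DMSO, 728120 for I-CBP112, 696917 for A-485 and 766588 for both. In replicate 2, the sums were 187776, 181486, 269868 and 408673 in the same order. Sums above that of DMSO, with A-485 and with both, were thus seen in replicate 2 only. The median shift within each replicate was not tested. Scaling brought all 7 medians to values from 0.00 to 0.04, and the changes reported are relative to these. All 8 luminal prostate markers were detected, from 8.40 scaled FPKM upward, and their part in the results was not tested. They went different ways, with group means in the order DMSO, I-CBP112, A-485 and both of 2121, 1087, 599.9 and 51.1 for KLK3, which encodes the prostate-specific antigen, 985, 685, 684 and 1096 for KRT8, 482, 549.5, 277 and 396 for FOLH1, and 227.7, 177, 203 and 191 for HOXB13. Of the markers of other cells, TP63, PTPRC, CD3E, HBB, ADIPOQ and FABP4 were at 0 in every library, and LEP, PLIN1, COL1A2, DCN and LUM stayed under 1. KRT5 reached 14.1, KRT14 1.42, COL1A1 11.7 and CD68 5.92. In the same order, group means were 3.46, 7.34, 0.127 and 0.834 for KRT5, 0.697, 0.789, 0.0209 and 0.216 for KRT14, 3.47, 6.02, 9.59 and 10.7 for COL1A1, and 1.67, 2.33, 3.94 and 4.96 for CD68, and their part in the results was not tested.

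The 250 bases before the annotated starts of 4 genes, ELOVL7, ELOVL5, SCD and AMACR, are shown. These genes did not all change under the same treatment. By the limma test given below, ELOVL7, SCD and AMACR changed with A-485, and ELOVL7 and ELOVL5 with both compounds, against DMSO. PNPLA2 and CPT1A, which also changed with both compounds, are not shown. The sequences come from RefSeq on GRCh38.p14 and run 5′ to 3′ on the strand of the gene. Capitals mark matches on either strand to the NF-Y box CCAAT, the GC box GGGCGG and the E-box CACGTG. The windows are chr5:60844270-60844519 (minus strand) for ELOVL7, chr6:53348951-53349200 (minus strand) for ELOVL5, chr10:100346983-100347232 (plus strand) for SCD and chr5:34008051-34008300 (minus strand) for AMACR.
ELOVL7: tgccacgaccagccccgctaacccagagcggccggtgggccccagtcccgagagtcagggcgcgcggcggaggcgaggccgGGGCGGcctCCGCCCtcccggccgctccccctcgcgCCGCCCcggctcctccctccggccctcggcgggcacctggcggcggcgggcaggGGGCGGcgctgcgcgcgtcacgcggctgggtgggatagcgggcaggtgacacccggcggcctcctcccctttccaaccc
ELOVL5: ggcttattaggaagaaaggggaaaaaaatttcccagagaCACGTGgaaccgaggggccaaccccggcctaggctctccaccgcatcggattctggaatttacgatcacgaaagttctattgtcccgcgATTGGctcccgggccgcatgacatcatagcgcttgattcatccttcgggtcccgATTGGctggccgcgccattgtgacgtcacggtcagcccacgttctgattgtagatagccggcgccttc
SCD: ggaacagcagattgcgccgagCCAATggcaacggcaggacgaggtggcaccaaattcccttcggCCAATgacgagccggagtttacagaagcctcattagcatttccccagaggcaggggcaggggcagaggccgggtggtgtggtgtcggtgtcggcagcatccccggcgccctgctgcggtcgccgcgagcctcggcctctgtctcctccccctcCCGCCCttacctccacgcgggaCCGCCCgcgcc
AMACR: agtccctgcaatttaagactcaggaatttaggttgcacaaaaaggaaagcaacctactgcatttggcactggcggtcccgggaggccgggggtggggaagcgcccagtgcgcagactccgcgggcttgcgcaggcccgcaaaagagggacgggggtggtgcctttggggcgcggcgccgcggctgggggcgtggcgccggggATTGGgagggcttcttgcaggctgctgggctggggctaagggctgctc
The window of ELOVL7 was 80.8% GC with 4 GC boxes, that of SCD 68% GC with 2 GC boxes and 2 NF-Y boxes, that of ELOVL5 56% GC with 2 NF-Y boxes and 1 E-box, and that of AMACR 66.4% GC with 1 NF-Y box. No single motif was in all 4 windows. A window was found for 31 of the 35 genes. The NF-Y box was in 11 of these 31, against 32% of all 35116 promoter windows of the same length. The GC box was in 28 of the 31, against 42.6%. The background was all windows, not only those of tested genes, and these differences were not tested. ELOVL5 was the member with the E-box, which 6.34% of all windows hold. The sterol response element TCACNCCAC was found in the windows of ACSL1 and PNPLA2 (0.883% of all windows). These matches describe letters in a window and show no binding.

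With DMSO, the members spanned a wide range of levels per length. A change is the difference of group means on the scale of log2(scaled FPKM + 1), followed by its standard error, and it passed where the limma p, adjusted over all genes tested, was under 0.05. The replicate block is the same fit with the replicate number as a term. Levels are in scaled FPKM, which are fragments per kilobase of transcript and per 1e+06 fragments, summed per gene and scaled between libraries. FADS2, the delta-6 desaturase, was highest at 477 ± 151 scaled FPKM (mean ± SD, n = 2), ahead of the mitochondrial very long chain acyl-CoA dehydrogenase ACADVL at 457 ± 122 and the enoyl-CoA hydratase ECHS1 at 363 ± 132. These neighbours did not differ beyond their spread. SCD, at 264 ± 64.5, and ELOVL5, at 176 ± 24.4, were also among the 6 highest of the 34 matched genes. ELOVL7 stood at 14.8 ± 2.10 and the arachidonate-preferring acyl-CoA synthetase ACSL4 at 0.605 ± 0.0297, above ELOVL2 alone.

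**Figure D1:**
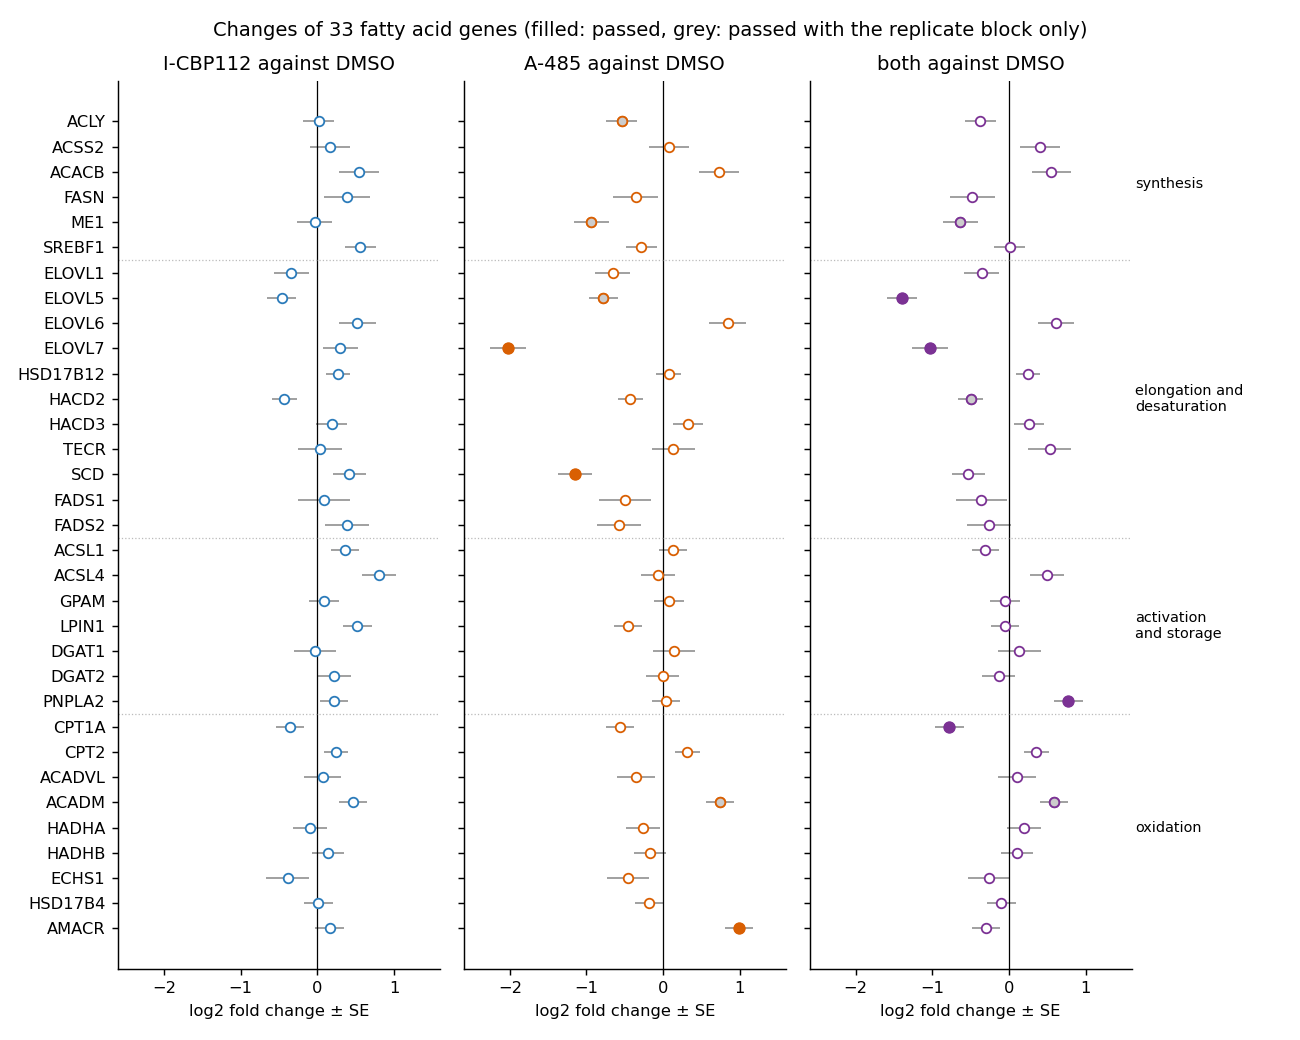
Log2 fold changes (x axis, on the scale of log2(scaled FPKM + 1)) of the 33 tested genes against DMSO for I-CBP112, A-485 and both compounds, in role order; points are estimates from 2 libraries per group and bars are standard errors. Filled points passed the limma test and grey points passed with the replicate block only. ELOVL7 lies farthest left with A-485 and ELOVL5 with both compounds, and no point is filled with I-CBP112.

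Against DMSO, A-485 lowered the elongase ELOVL7 and the desaturase SCD and raised the racemase AMACR. Both compounds together lowered the elongases ELOVL5 and ELOVL7 and the carnitine palmitoyltransferase CPT1A and raised the lipase PNPLA2. I-CBP112 gave 0 calls among the 33 members and among all genes (0% of 11874, limma), and 6 members had an unadjusted p under 0.05, against 11.1% of all genes. A-485 changed 3 members (9.09%), against 4.44% of all genes, with 1 higher (1.25% of all genes) and 2 lower (3.18%). With the replicate block it changed 7, against 13.6%. Both compounds together changed 4 members (12.1%), against 10.5%, with 1 higher (3.44%) and 3 lower (7.09%), and 7 with the block, against 20%. With both compounds the share of members thus lay near that of all genes. The list was chosen with earlier results of these data known, so the shares of members are description only. The split of all calls depended on the scaling, with 149 genes higher and 378 lower for A-485 and 409 higher and 842 lower for the combination, against 378 and 161, and 737 and 489, when libraries were scaled by their total alone. Among the members, that scaling gave 2 higher (ACADM and AMACR) and 1 lower (ELOVL7) for A-485, and 1 higher (PNPLA2) and 1 lower (ELOVL5) for the combination. On the FPKM as deposited, no gene passed in any comparison (limma).

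The synthesis genes had no call against DMSO without the replicate block. The median log2 fold change of the 6 tested, relative to the median of all genes, was 0.27 for I-CBP112, -0.33 for A-485 and -0.22 for the combination.

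ME1, the cytosolic malic enzyme, was lower with A-485 in both replicates. Its level was 25.4 and 29.8 scaled FPKM under DMSO, 23.6 and 30.4 with I-CBP112, 13.1 and 14.7 with A-485, and 14.3 and 21.1 with both compounds. The A-485 libraries and those with both lay below every DMSO library. The log2 fold change was -0.94 ± 0.23 with A-485 (SE; limma, adjusted p = 0.0593) and -0.64 ± 0.23 with both (limma, adjusted p = 0.117). With the replicate block both passed (limma, adjusted p = 0.0138 and 0.0253), though as deposited the second value was 0.0621.

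ACLY, the ATP-citrate lyase, had levels of 133 and 129 scaled FPKM under DMSO, 141 and 125 with I-CBP112, 98.2 and 82.3 with A-485, and 115 and 88.6 with both. The A-485 libraries lay below the 4 libraries without A-485. The log2 fold change of -0.54 ± 0.20 did not pass without the block (limma, adjusted p = 0.147) and passed with it (limma, adjusted p = 0.0404). With both compounds the value was -0.38 ± 0.20, which did not pass either way (limma, adjusted p = 0.270 and 0.0832 with the block).

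FASN, the fatty acid synthase, was measured at 116 and 178 scaled FPKM under DMSO, 152 and 233 with I-CBP112, 111 and 113 with A-485, and 87.3 and 121 with both. The groups with both compounds and with DMSO overlapped, and replicate 2 exceeded replicate 1 in every group. Against DMSO the log2 fold change was 0.39 ± 0.29 for I-CBP112, -0.36 ± 0.29 for A-485 and -0.48 ± 0.29 for the combination, and none passed (limma, adjusted p from 0.330 to 0.658). Between both compounds and I-CBP112 it was -0.87 ± 0.29 (limma, adjusted p = 0.198), with a call under the block (limma, adjusted p = 0.0385).

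SREBF1 encodes SREBP-1, the transcription factor that drives many of the synthesis genes. It stood at 139 and 114 scaled FPKM under DMSO, 185 and 187 with I-CBP112, 117 and 90.2 with A-485, and 132 and 121 with both. Its I-CBP112 libraries were the 2 highest of all 8. The change against DMSO was 0.56 ± 0.20 with I-CBP112 (limma, adjusted p = 0.380) and 0.01 ± 0.20 with both (limma, adjusted p = 0.980). ACSS2, the acetyl-CoA synthetase, and ACACB, the mitochondrial acetyl-CoA carboxylase, had no call against DMSO without or with the block. Their log2 fold changes lay between 0.07 and 0.73 in the 3 groups. With A-485, ACSS2 was at -0.297 in replicate 1 and 0.445 in replicate 2. By limma-voom on approximate fragments its value there was -1.04, without a call. Its leading transcript held 7.88% to 80.3% of its value.

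The largest called fold changes among the members were in elongation and desaturation genes. The median of the 11 tested, relative to all genes, was 0.18 for I-CBP112, -0.50 for A-485 and -0.40 for the combination. A-485 lowered 2 of them, ELOVL7 and SCD, against 3.18% of all genes, and both compounds lowered 2, ELOVL7 and ELOVL5, against 7.09%.

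ELOVL7, an elongase of saturated and long-chain fatty acids that is known as an androgen-responsive gene in prostate cancer cells, fell most with A-485 alone. Its level was 16.3 and 13.4 scaled FPKM under DMSO, 21.1 and 16.0 with I-CBP112, 2.28 and 3.59 with A-485, and 6.67 and 6.77 with both. All A-485 libraries were lowest, those with both compounds came next, and the libraries of DMSO and I-CBP112 overlapped. The log2 fold change was -2.02 ± 0.23 with A-485 (limma, adjusted p = 0.00632), at -2.40 in replicate 1 and -1.65 in replicate 2, and it passed in 8 of 8 fits that left out 1 library. With both it fell by 1.03 on the log2 scale (SE 0.23; limma, adjusted p = 0.0296), and this call was lost without DMSO replicate 1 and without either library of both compounds (limma, adjusted p up to 0.152) and with scaling by total alone or no filter (limma, adjusted p = 0.0860 and 0.0530). With I-CBP112 the value was 0.30 ± 0.23 (limma, adjusted p = 0.660). The level with both lay above that with A-485 by 0.99 ± 0.23, which did not pass (limma, adjusted p = 0.125, or 0.0938 with the block). Counts were low, with an approximate 49 to 862 fragments per library, and the leading transcript held 0.146% to 73.1% of the gene's value, so only the sum over its transcripts is described.

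ELOVL5, the elongase of polyunsaturated chains, was lowest with both compounds. It stood at 193 and 159 scaled FPKM under DMSO, 123 and 130 with I-CBP112, 96.9 and 107 with A-485, and 60.1 and 72.8 with both. None of the 4 groups overlapped, and their order was DMSO, I-CBP112, A-485 and both. Against DMSO, both compounds lowered it, with a log2 fold change of -1.39 ± 0.19 (limma, adjusted p = 0.00493), at -1.67 in replicate 1 and -1.11 in replicate 2. The call held in 7 of 8 fits that left out 1 library and was lost without replicate 1 of both compounds (limma, adjusted p = 0.0561). The single compounds gave -0.47 ± 0.19 with I-CBP112 (limma, adjusted p = 0.437) and -0.78 ± 0.19 with A-485 (limma, adjusted p = 0.0618, or 0.0276 with the block). The interaction (the change with both, less the changes with each compound alone) was -0.15 with a 95% interval from -0.78 to 0.49 (limma, adjusted p = 0.890). One transcript carried 87.3% to 92.2% of its value in every library.

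**Figure D2:**
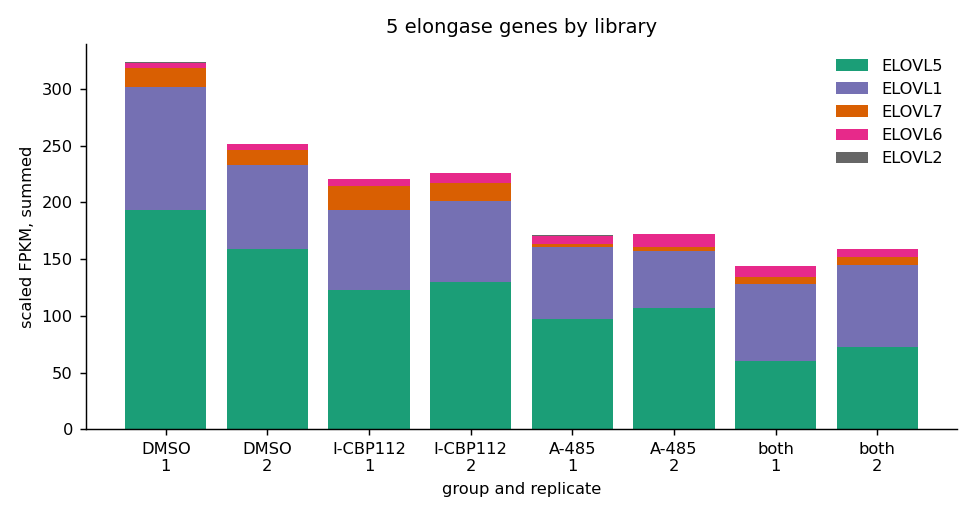
Scaled FPKM (y axis) of the 5 matched elongase genes summed in each library, by group and replicate, with 1 colour per gene. The DMSO libraries reach 323 and 252 and those with both compounds 144 and 159, and the ELOVL5 segment is shortest with both compounds.

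Summed over the 5 elongase genes matched, ELOVL1, ELOVL2, ELOVL5, ELOVL6 and ELOVL7, the level was 323 and 252 scaled FPKM under DMSO, 221 and 226 with I-CBP112, 171 and 172 with A-485, and 144 and 159 with both. ELOVL5 made up 59.7% and 63.0% of this sum with DMSO and 41.7% and 45.9% with both. The share of ELOVL1, an elongase of very long saturated chains, was 33.6% and 29.6% with DMSO and 47.1% and 45.6% with both, while its own level did not pass against DMSO (limma, adjusted p from 0.122 to 0.609). ELOVL7 made up 1.33% and 2.09% with A-485 and 5.05% and 5.30% with DMSO. ELOVL6, the elongase of palmitate, went from 4.77 and 4.86 scaled FPKM under DMSO to 7.79 and 11.4 with A-485, which did not pass (limma, adjusted p = 0.0820). The elongase genes thus did not all lie on the same side of DMSO.

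SCD, the desaturase that makes oleate from stearate, was lowest with A-485 and highest with I-CBP112. Levels were 310 and 219 scaled FPKM under DMSO, 353 and 343 with I-CBP112, 128 and 107 with A-485, and 177 and 183 with both. No group overlapped another. SCD fell with A-485, with a log2 fold change of -1.15 ± 0.22 (limma, adjusted p = 0.0303), at -1.27 and -1.03 in the 2 replicates. Leaving out DMSO replicate 2 kept the call, and leaving out any other library ended it (limma, adjusted p up to 0.204), as did scaling by total alone and testing without a filter (limma, adjusted p = 0.0553 and 0.0519). With I-CBP112 the value was 0.42 ± 0.22 (limma, adjusted p = 0.514) and with both -0.53 ± 0.22 (limma, adjusted p = 0.163), neither of which passed.

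The partners of SCD were more variable. FADS2 stood at 584 and 370 scaled FPKM under DMSO, 674 and 548 with I-CBP112, 376 and 259 with A-485, and 413 and 365 with both, with replicate 1 above replicate 2 in each group. It overlapped DMSO in every treated group and had no call against it (limma, adjusted p up to 0.652). FADS1, the delta-5 desaturase, had changes between -0.49 and 0.09 with no call, and its exons overlap those of FADS2 on the opposite strand by 490 bases. Whether counting used strand is not stated in the labels, so this pair may share reads.

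HACD2, a 3-hydroxyacyl-CoA dehydratase of the elongation cycle, was 26.0 and 27.0 scaled FPKM under DMSO, 19.2 and 19.5 with I-CBP112, 18.5 and 20.4 with A-485, and 17.2 and 19.8 with both. All 6 treated libraries lay below both DMSO libraries. The change was -0.43 ± 0.16 for I-CBP112, -0.43 ± 0.16 for A-485 and -0.50 ± 0.16 for the combination (limma, adjusted p from 0.0920 to 0.401), and the last passed with the block (limma, adjusted p = 0.0364) but was 0.19 in the values as deposited. The other genes of the cycle, HSD17B12, HACD3 and TECR, had values between 0.03 and 0.53 with no call.

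**Figure D3:**
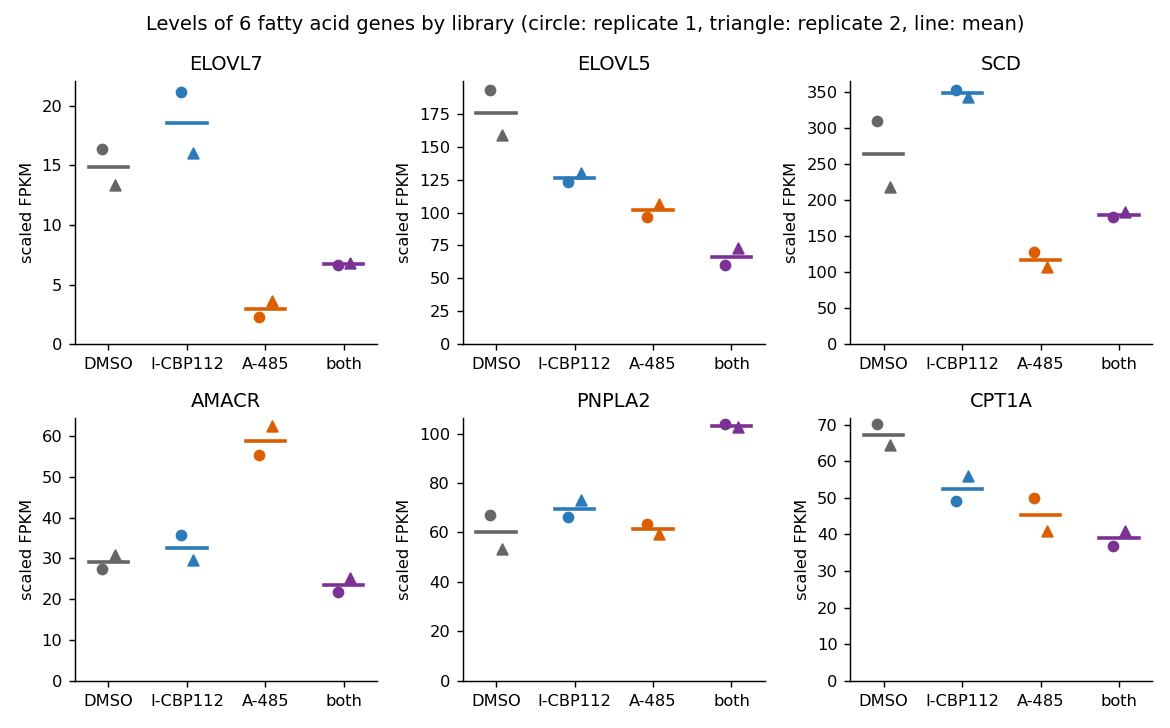
Scaled FPKM (y axis, starting at 0) of ELOVL7, ELOVL5, SCD, AMACR, PNPLA2 and CPT1A in each library by group; circles are replicate 1, triangles replicate 2 and lines group means. AMACR is highest with A-485 at 55.2 and 62.4, and PNPLA2 is highest with both compounds at 104 and 102.

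Activation and storage genes had 1 call against DMSO and relative medians of 0.21, 0.03 and -0.09 for I-CBP112, A-485 and both. PNPLA2 encodes the triglyceride lipase that starts the breakdown of lipid droplets, and it was the member that rose with both compounds. Its level was 67.0 and 53.3 scaled FPKM under DMSO, 66.2 and 73.0 with I-CBP112, 63.4 and 59.6 with A-485, and 104 and 102 with both. The group with both lay above all other libraries, and the other groups overlapped DMSO. The log2 fold change with both was 0.78 ± 0.18 (limma, adjusted p = 0.0350), at 0.63 in replicate 1 and 0.93 in replicate 2. This call held in 1 of 8 fits that left out a library, the fit without DMSO replicate 1 (limma, adjusted p up to 0.179 in the others). With the single compounds the change was 0.21 ± 0.18 and 0.04 ± 0.18 (limma, adjusted p = 0.697 and 0.909). The interaction of 0.52 ± 0.26 did not pass (limma, adjusted p = 0.588). An antisense gene overlaps 10.4% of its exon bases, and reads of the pair may not be told apart.

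ACSL1, a long-chain acyl-CoA synthetase, stood at 155 and 160 scaled FPKM under DMSO, 190 and 216 with I-CBP112, 180 and 165 with A-485, and 120 and 134 with both. Its lowest libraries were those with both compounds and its 2 highest those with I-CBP112. No change against DMSO passed (limma, adjusted p from 0.302 to 0.683). Between both compounds and I-CBP112 the value was -0.67 ± 0.18 (limma, adjusted p = 0.113, or 0.0364 with the block), and it was 0.0453 in the values as deposited.

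LPIN1, a phosphatidate phosphatase of triglyceride synthesis that also acts as a coactivator, was 9.62 and 12.5 scaled FPKM under DMSO, 17.5 and 15.0 with I-CBP112, 7.88 and 7.48 with A-485, and 10.7 and 10.3 with both. I-CBP112 libraries lay above and A-485 libraries below the DMSO range, with changes of 0.52 ± 0.19 and -0.46 ± 0.19 that did not pass (limma, adjusted p = 0.374 and 0.169). ACSL4 stood at 1.12 to 2.11 scaled FPKM in the 4 libraries with I-CBP112, alone or with A-485, against 0.436 to 0.629 in the rest. It had 10 to 126 approximate fragments per library. It met the filter only through those 4 libraries, where it was higher, so this pattern and its p values carry little weight. No comparison of ACSL4 passed (limma, adjusted p = 0.321 for I-CBP112 and 0.188 for both against DMSO). GPAM, DGAT1 and DGAT2, which add acyl chains to glycerol phosphate and diacylglycerol, lay between -0.14 and 0.22 against DMSO with no call.

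Oxidation genes had relative medians of 0.06 for I-CBP112, -0.19 for A-485 and 0.06 for the combination, and their members went different ways. CPT1A, the carnitine palmitoyltransferase that admits fatty acids to mitochondria, was 70.2 and 64.4 scaled FPKM under DMSO, 49.0 and 56.1 with I-CBP112, 49.9 and 40.9 with A-485, and 36.9 and 40.9 with both. All treated libraries lay below DMSO. With both it fell by 0.78 on the log2 scale (SE 0.18; limma, adjusted p = 0.0352), with changes of -0.91 and -0.64 in the 2 replicates. The call was lost whichever library was left out (limma, adjusted p from 0.0515 to 0.205) and with scaling by total alone (limma, adjusted p = 0.0868). The changes of -0.35 ± 0.18 with I-CBP112 and -0.56 ± 0.18 with A-485 did not pass (limma, adjusted p = 0.513 and 0.111).

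ACADM, the medium-chain acyl-CoA dehydrogenase, stood at 24.1 and 29.6 scaled FPKM under DMSO, 40.2 and 34.7 with I-CBP112, 43.6 and 47.6 with A-485, and 38.8 and 43.1 with both. All 6 treated libraries exceeded both DMSO libraries. The log2 fold change was 0.47 ± 0.18, 0.75 ± 0.18 and 0.59 ± 0.18 in that order (limma, adjusted p = 0.415, 0.0600 and 0.0778). With the block the last 2 passed (limma, adjusted p = 0.0274 and 0.0363), and with scaling by total alone the A-485 value passed too (limma, adjusted p = 0.0414). CPT1A and ACADM, 2 steps of the same mitochondrial route, thus lay on opposite sides of DMSO in every treated library.

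AMACR, the peroxisomal and mitochondrial racemase of branched-chain fatty acids, rose with A-485 but not with both compounds. Its level was 27.3 and 30.8 scaled FPKM under DMSO, 35.8 and 29.6 with I-CBP112, 55.2 and 62.4 with A-485, and 21.8 and 25.3 with both. The A-485 libraries lay above all others, and those with both were lowest. The log2 fold change with A-485 was 0.99 ± 0.18 (limma, adjusted p = 0.0280), at 0.99 in replicate 1 and 0.995 in replicate 2. This call was kept without DMSO replicate 2 and without either I-CBP112 library, and lost without each of the other libraries (limma, adjusted p up to 0.195). With both compounds against DMSO the change was -0.30 ± 0.18 (limma, adjusted p = 0.338), and with I-CBP112 it was 0.16 ± 0.18 (limma, adjusted p = 0.780).

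The annotation of AMACR limits these values. In GENCODE, 55.0% of its exon bases are shared with the readthrough gene C1QTNF3-AMACR on the same strand and 9.82% with a pseudogene, and its leading transcript held 22.5% to 51.8% of its value. C1QTNF3, the gene upstream in that readthrough, was looked at after these values were seen. It stood at 0.628 and 1.57 scaled FPKM under DMSO, 0.988 and 0.844 with I-CBP112, 3.06 and 3.59 with A-485, and 1.11 and 1.41 with both, a change of 1.08 ± 0.26 with A-485 (limma, adjusted p = 0.0576, or 0.0344 with the block). Its part in the AMACR values was not tested. Exons of other genes also overlap 6.92% of the exon bases of SREBF1, 3.28% of ACADM and 2.99% of ACLY. The remaining oxidation genes, CPT2, ACADVL, HADHA, HADHB, ECHS1 and HSD17B4, had changes between -0.46 and 0.36 against DMSO with no call.

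The direct comparison of the 2 single compounds gave lower levels with A-485 for most members. Of the 33, 24 (72.7%) had a log2 value below 0, against 49.8% of all genes. With scaling by total alone 18 did, against 31.1%, and as deposited 10 did, against 16.4%, while 24 lay below the median of all genes in each of these settings. The test called 2 members (6.06%, against 0.859% of all genes), and both were lower with A-485. Since the list was chosen with earlier results of these data known, these shares are description only. ELOVL7 differed by -2.32 ± 0.23 (limma, adjusted p = 0.00766) and SCD by -1.57 ± 0.22 (limma, adjusted p = 0.0229). Within replicate 1 and replicate 2 these were -2.76 and -1.89 for ELOVL7 and -1.46 and -1.68 for SCD. The ELOVL7 call was lost without A-485 replicate 1 and without either I-CBP112 library (limma, adjusted p up to 0.0607), and the SCD call was kept only without DMSO replicate 1 or replicate 2 (limma, adjusted p up to 0.210) and lost with no filter (limma, adjusted p = 0.0588).

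**Figure D4:**
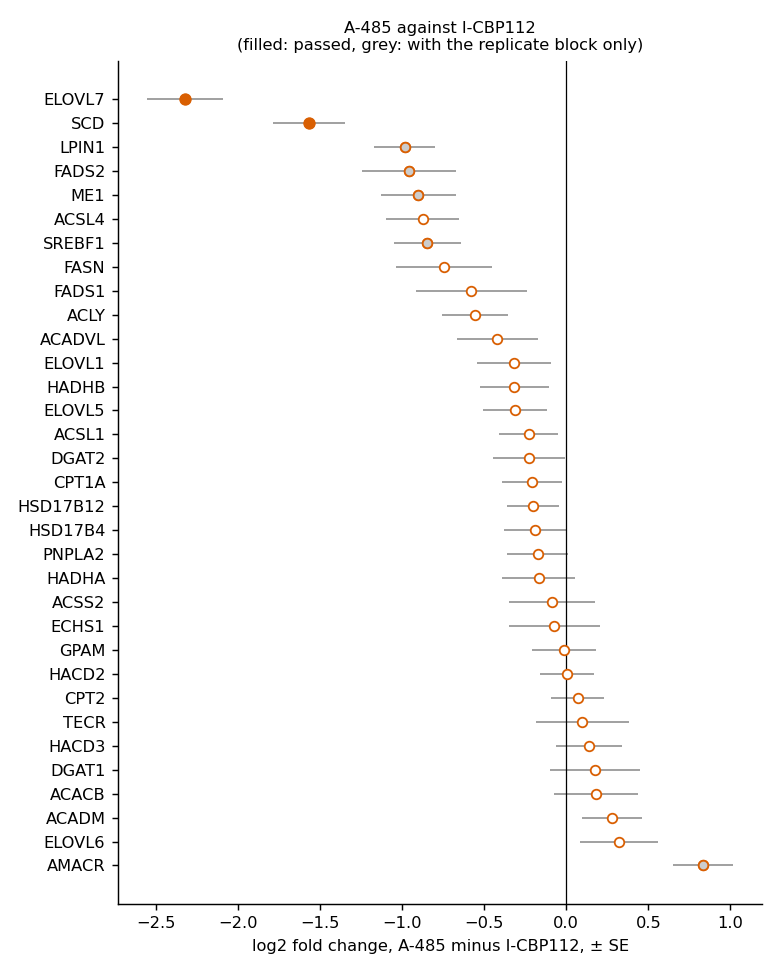
Log2 fold change (x axis, A-485 minus I-CBP112, on the scale of log2(scaled FPKM + 1)) of the 33 tested genes, sorted; points are estimates from 2 libraries per group and bars are standard errors. Filled points, ELOVL7 and SCD, passed the limma test, and grey points passed with the replicate block only; 24 of the 33 points lie left of 0.

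With the replicate block, 7 members (21.2%) passed between the single compounds, against 2.64% of all genes. This share too is description only, given how the list was chosen. Lower with A-485 were also ME1 at -0.90 ± 0.23 (limma with block, adjusted p = 0.0328), SREBF1 at -0.85 ± 0.20 (limma with block, adjusted p = 0.0335), FADS2 at -0.96 ± 0.29 (limma with block, adjusted p = 0.0328) and LPIN1 at -0.99 ± 0.19 (limma with block, adjusted p = 0.0404), and AMACR was higher at 0.83 ± 0.18 (limma with block, adjusted p = 0.0470). Without the block their adjusted p values ran from 0.0620 to 0.192 (limma). The standard errors given are those without the block. Members from synthesis, desaturation and storage were thus lower with A-485 than with I-CBP112, which is not the same as a fall against DMSO. Against DMSO, I-CBP112 and A-485 gave 0.56 and -0.28 for SREBF1, 0.52 and -0.46 for LPIN1, and 0.385 and -0.57 for FADS2. For ME1 they gave -0.04 and -0.94. None of these values against DMSO passed without the block.

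Adding A-485 to I-CBP112 lowered 1 member (3.03%, against 2.24% of all genes). It was ELOVL7, at -1.33 ± 0.23 (limma, adjusted p = 0.0298), a call lost without either library of I-CBP112 or of both compounds (limma, adjusted p up to 0.198), with scaling by total alone and with no filter (limma, adjusted p = 0.0762 and 0.0669). With the block 5 members were lower (15.2%, against 5.76%), namely FASN, ELOVL5, ELOVL7, SCD and ACSL1. For ELOVL5 the difference was -0.92 ± 0.19 and for SCD -0.95 ± 0.22 (limma with block, adjusted p = 0.0244 and 0.0249, or limma without it, 0.0553 and 0.0761).

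Adding I-CBP112 to A-485 changed 1 member (3.03%, against 0.817% of all genes, and 1.34% with the block). AMACR fell, with a log2 fold change of -1.29 ± 0.18 (limma, adjusted p = 0.0226), at -1.30 and -1.27 in the 2 replicates, a call lost without either library of A-485 or of both compounds (limma, adjusted p up to 0.225) and with no filter (limma, adjusted p = 0.0524). The interaction of AMACR was -1.45 with a 95% interval from -2.04 to -0.85 and did not pass over all genes (limma, adjusted p = 0.190, or 0.108 with the block). No member and none of all genes (0%) passed the interaction by limma, and with the block no member did, against 0.0842% of all genes. At an unadjusted p under 0.05 there were 3 members, AMACR, ACSL1 and ACADM, against 8.94% of all genes, and limma-voom on approximate fragments called 1 member, against 36 of all genes (0.303%). The comparisons with DMSO share the DMSO libraries, so their member values are not independent of each other.

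Other genes of the same pathways came from 5 lists of 109 genes, of which 81 were tested. I-CBP112 changed none of them (limma; 0% of all genes). A-485 changed 3 of the 81 (3.7%), against 4.44% of all genes. It raised LPIN3, a lipin of triglyceride synthesis, and lowered MID1IP1, an activator of acetyl-CoA carboxylase, and INSIG1, which retains the SREBP complex in the endoplasmic reticulum. LPIN3 changed by 1.15 ± 0.20 and INSIG1 by -1.01 ± 0.20 (limma, adjusted p = 0.0243 and 0.0324), and MID1IP1 went from 238 and 171 scaled FPKM to 107 and 93.8 (limma, adjusted p = 0.0473). INSIG1, itself a known SREBP target, was also lower with A-485 than with I-CBP112, by -2.14 ± 0.20 (limma, adjusted p = 0.00547), and higher with both than with A-485, by 1.35 ± 0.20 (limma, adjusted p = 0.0245). Its level was 40.4 and 32.1 scaled FPKM under DMSO, 84.1 and 76.3 with I-CBP112, 19.7 and 15.4 with A-485, and 46.8 and 45.2 with both, and no group overlapped another.

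Both compounds together raised 5 of the 81 genes and lowered 3 (9.88% in all), against 10.5% of all genes, so the share called was near the background. Of 8 tested genes of synthesis and modification, 1 rose, HACD1, a dehydratase of the elongation cycle, at 1.19 ± 0.26 (limma, adjusted p = 0.0279). HACD1 was near the floor, at 0.621 and 0.539 scaled FPKM under DMSO and 2.29 and 2.94 with both. It met the filter only through treated libraries, where it was higher, so this call carries little weight. Of 14 in activation and storage, LPIN3 rose, at 0.93 ± 0.20, and CIDEB, a lipid droplet protein, fell by 1.75 on the log2 scale (SE 0.36; limma, adjusted p = 0.0272 and 0.0234). Of 31 in oxidation, 2 rose and 1 fell. PHYH, the peroxisomal phytanoyl-CoA hydroxylase, rose by 1.27 ± 0.20 (limma, adjusted p = 0.00801), from 38.1 and 45.7 scaled FPKM under DMSO to 90.7 and 115 with both. EHHADH, the peroxisomal bifunctional enzyme, rose by 0.79 ± 0.19 (limma, adjusted p = 0.0358). ECI1, a mitochondrial enoyl-CoA isomerase, fell from 568 and 411 scaled FPKM to 249 and 233 (limma, adjusted p = 0.0271). Among 22 regulators, PPARA, a nuclear receptor that drives oxidation genes, rose by 0.90 ± 0.19 and PPARG, which drives lipid storage, fell by 0.81 on the log2 scale (SE 0.21; limma, adjusted p = 0.0258 and 0.0465). None of 6 uptake and binding genes passed. With the block, A-485 raised 6 and lowered 10 of the 81 genes (19.8%, against 13.6% of all genes) and both compounds raised 8 and lowered 8 (19.8%, against 20%). The medians of the 5 lists with both compounds ran from -0.20 to 0.27, against 0.04 for all genes tested.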

How the data were processed

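RNA-seq of 8 LNCaP-FGC libraries, 2 for each of 4 groups, was analysed from 1 table of 81591 transcripts. Its deposited values are FPKM: per the submitters' processing notes, the authors used STAR, Cufflinks, DESeq and DESeq2 with hg19 and GRCh37, without stated versions or roles. The file name speaks of counts. However, 78.3% of the deposited values were fractional, and 80.0% to 84.6% of low values were multiples of 1 fragment within a tolerance of 0.1, so limma was used in place of a count model. Per-transcript depth is therefore approximate.

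Transcripts were assigned by Ensembl identifier in GENCODE release 29 (GRCh38, another build than the submitters'). Of them 74209 (91.0%) matched and were summed to 19431 genes. Libraries were scaled to 1e+06 and by a trimmed mean of log ratios (30% of ratios and 5% of levels trimmed). Genes reaching 1 in at least 2 libraries were tested, 11874 in all, by limma 3.58.1 (R 4.3.3) applied to log2(scaled FPKM + 1). The fit used a trended, robust spread shared by 4 groups with 4 residual degrees of freedom, and p was adjusted over all genes by Benjamini-Hochberg, at 0.05. A fold change on this scale understates the change of low genes. Errors after ± are standard errors unless marked SD. The 7 comparisons were each treatment and DMSO, both compounds and each alone, A-485 and I-CBP112, and the interaction. The test was checked on simulated data.

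Libraries with the same number share a prefix in their labels, which was taken as pairing. Their differences between replicates correlated at 0.145 to 0.425 between groups over the tested genes, and values with the number as a block are given where they change a call. The members and lists were chosen with earlier results of these data known. Values per library are given for members called in any comparison, without or with the block, and for ACLY, FASN, SCD, SREBF1, ELOVL5, ELOVL7, CPT1A and AMACR regardless. Other members are given by range, and of the other pathway genes the called ones with the largest changes with both compounds are named. The called genes of these lists with A-485, and C1QTNF3, were chosen after their values were seen. Marker lists were luminal prostate, basal, fibroblast, blood and adipocyte. Alternatives were another pseudocount (0.1), filter and scaling, the block, a correction for GC content and length, limma-voom on approximate fragments, and leaving out each library.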

Additional observations from a re-analysis of the deposited data

How the results depend on the processing

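Leaving out 1 library at a time, where the lone sample of a group is assumed to vary like the others, gave 1 to 6 members called for A-485 against DMSO, 0 to 2 for both compounds against DMSO, 0 to 3 for both against I-CBP112, 0 to 1 for both against A-485 and 0 to 3 for A-485 against I-CBP112, beside 3, 4, 1, 1 and 2. Over all genes the same fits gave 18 to 1349, 267 to 1276, 42 to 336, 9 to 122 and 6 to 115 calls, beside 527, 1251, 266, 97 and 102. In that order, the values as deposited gave 0 calls each, for members and for all genes, and the replicate block gave 7, 7, 5, 1 and 7 members and 1614, 2371, 684, 159 and 313 of all genes. The block with GC and length correction gave 9, 9, 8, 2 and 9 members and 1632, 3075, 1032, 254 and 481 of all genes. Limma-voom gave 10, 8, 4, 2 and 5 members and 1 in the interaction, and 1862, 2304, 572, 313, 302 and 36 of all genes. Without a filter there were 0 calls for both against I-CBP112, 0 for both against A-485 and 1 for A-485 against I-CBP112, with 160, 57 and 40 of all genes. A filter at 5 gave 2 for both against I-CBP112 (270 of all genes), and scaling by total alone gave 0 there (141) and 2 for both against DMSO (1226). The cause was not tested.

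Relative medians moved as follows. Synthesis genes gave 0.17 with I-CBP112 and -0.39 with both under the filter at 5, -0.55 with A-485 and -0.31 with both by limma-voom, and -0.0267 with both as deposited. Elongation and desaturation genes gave 0.11 with I-CBP112 under the block with GC and length correction, and with A-485 -0.45 under the filter at 5, -0.37 as deposited and -0.60 by limma-voom. Activation and storage genes gave 0.30 with I-CBP112 under the block with GC and length correction and 0.10 with A-485 under the filter at 5. Left-out libraries gave synthesis medians from 0.18 to 0.30 with I-CBP112, -0.41 to -0.25 with A-485 and -0.22 to -0.10 with both, elongation and desaturation medians from 0.0706 to 0.29 and -0.71 to -0.30 with I-CBP112 and A-485, and activation and storage medians from 0.20 to 0.35, -0.16 to 0.0872 and -0.0908 to 0.0461 with I-CBP112, A-485 and both.

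Of the member changes called without or with the block, 3 reversed as deposited: ME1 at 0.0621 and HACD2 at 0.19 for both against DMSO, and ACSL1 at 0.0453 for both against I-CBP112. No scaling between libraries was applied in that setting. Its median over all genes was 0.58 for both against DMSO and 0.53 for both against I-CBP112, so these 3 values lay below the median gene. Of 220 member changes without a call, 116 changed sign under at least 1 alternative. Assignment by gene symbols in the table was not run, since the table holds none. Among tested members the lowest library held 10 approximate fragments for ACSL4, 42 for ACACB and 49 for ELOVL7, which limits their precision.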
